A study of Homo sapiens with 4 samples.

Results

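FOXK2 ChIP-seq peaks whose centre lay in a short interspersed element (SINE) were examined in OVCAR-5, an established ovarian cancer cell line labelled as high grade serous and of ascites origin. Members were all rows of the 2 deposited peak lists whose detailed annotation names a repeat of the SINE class. They numbered 281 of 12471 peaks in replicate 1 and 618 of 27281 peaks in replicate 2. Both lists came from a single condition with no labelled treatment, immunoprecipitated with a FOXK2 antibody, and each biological replicate had an input sample whose values were not analysed here. No comparison between conditions was possible, so SINE peaks were compared with other peaks of the same list and with flanking sequence. The lists carry no read totals, so the depth behind a single peak is unknown.

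SINEs are short retroelements that spread through the genome by borrowing the enzymes of longer elements. Alu elements are specific to primates, descend from the 7SL RNA gene and consist of a left and a right arm, whereas MIR elements and the rarer AmnSINE1, MamSINE1 and LFSINE_Vert are ancient, tRNA-derived or 5S-derived relics shared among many mammals or vertebrates. FOXK2 is a forkhead transcription factor, and forkhead proteins bind the heptamer TGTTTAC. AP-1, the dimer of FOS and JUN family proteins, binds TGANTCA and is a common partner of other factors at enhancers.

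Examples of the forkhead heptamer inside SINE peaks are shown first because the results on motifs turn on them. These are the best-ranked Alu peak and 3 MIR peaks found in both lists that hold TGTTTAC, with the heptamer in capitals, hg38 coordinates, and the name of the nearest gene and of the repeat.
MUT, AluSq, chr6:49453289-49453343, plus strand: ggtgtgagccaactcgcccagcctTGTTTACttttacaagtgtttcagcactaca
LOC105369438, MIRb, chr11:94737515-94737569, plus strand: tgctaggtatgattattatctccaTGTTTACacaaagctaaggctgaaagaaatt
GADD45B, MIRc, chr19:2507236-2507290, plus strand: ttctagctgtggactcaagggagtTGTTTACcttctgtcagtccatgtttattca
LOC221122, MIRb, chr11:44980053-44980107, plus strand: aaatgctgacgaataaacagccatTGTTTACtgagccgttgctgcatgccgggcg

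Most SINE peaks lay in MIR elements. MIR accounted for 220 of 281 SINE peaks in replicate 1 and 485 of 618 in replicate 2, and Alu for 43 and 91. The rest belonged to MamSINE1 of the tRNA-RTE family with 7 and 19 peaks, AmnSINE1 of the 5S-Deu-L2 family with 6 and 15, and LFSINE_Vert of the tRNA family with 5 and 8. All SINEs together held 2.25% of the list in replicate 1 (95% Wilson interval 2.01 to 2.53%) and 2.27% in replicate 2 (2.09 to 2.45%), so the share differed between replicates by less than its counting error. Wilson intervals here cover counting error only.

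Of the repeat names in either list, 5 had at least 10 peaks in both. MIRb came first with 94 and 221 peaks, followed by MIR with 46 and 111, MIRc with 45 and 91, MIR3 with 29 and 53, and AluJb with 10 and 25. Among Alu subfamilies the older AluJ group held 23 and 51 peaks and the intermediate AluS group 15 and 35, and the remaining 5 and 5 lay in Alu monomers or unassigned copies. No peak lay in the youngest group, AluY. Taking 3 counts as the limit for a count of 0, which is not the Wilson limit, a share of up to 6.98% of the 43 Alu peaks of replicate 1 and up to 3.30% of the 91 of replicate 2 is allowed. All SINE peaks were annotated as intronic (159 and 339) or intergenic (122 and 279), because the annotation names a repeat only for peaks in these 2 classes.

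**Figure D1:**
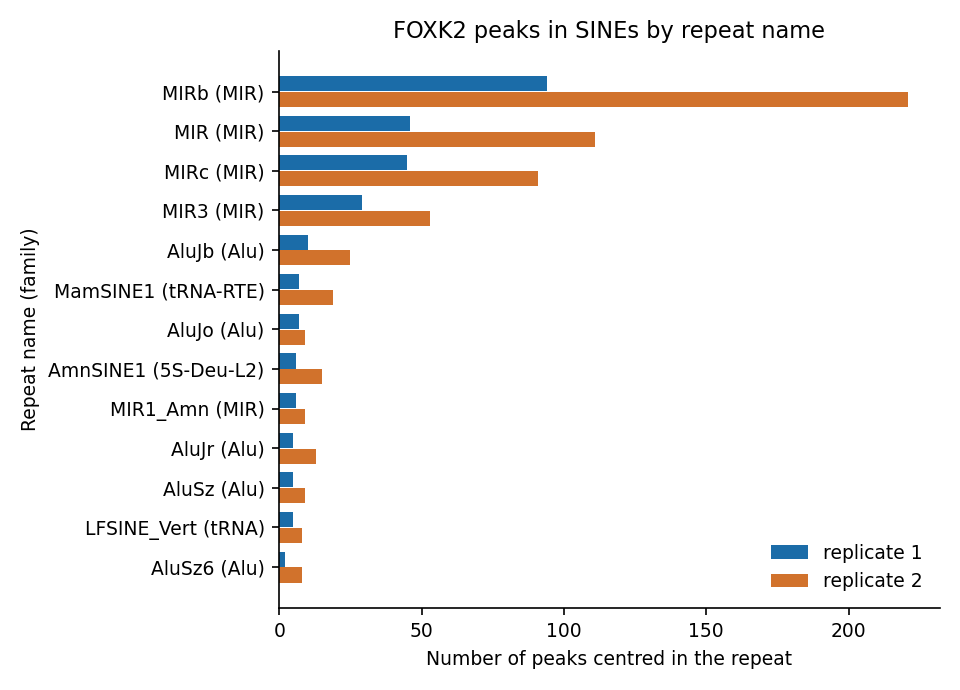
Number of FOXK2 peaks in each SINE repeat name (bars, x axis) for replicate 1 and replicate 2, for names with at least 10 peaks over both lists, with the family in parentheses. MIRb was the most frequent name in both replicates, with 94 and 221 peaks.

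The repeat labels were checked against words of 9 letters chosen as typical of each family and sought on either strand in the 100 bp to each side of the centre. At least 1 of 5 Alu words (GTGAAACCC, TTAGCCGGG, CCCAGCTAC, GTTCGAGAC and CACTGCACT) was present in 16 of 43 Alu peaks in replicate 1 (37.2%, interval 24.4 to 52.1%) and in 36 of 91 in replicate 2 (39.6%, 30.1 to 49.8%). The same words were present in 3 of 220 and 3 of 485 MIR peaks. At least 1 of 5 MIR words (CCTCAGTTT, CTGTGCCTC, TGTAAAATG, AGTGCCTGG and TTAAATGAG) was found in 23 of 220 MIR peaks (10.5%) and 69 of 485 (14.2%), and in 0 of 43 and 1 of 91 Alu peaks. Each set of words was thus more frequent in peaks of its own family than of the other, though most Alu and MIR peaks carried none of them. Among peaks outside any annotated repeat or CpG island, 53 and 119 held an Alu word (0.832% and 0.821%). In the same peaks a MIR word was found in 125 and 270 cases (1.96% and 1.86%). Windows of the same length centred 2000 bp from Alu peaks held an Alu word in 15.1% and 17.6% of cases. The words therefore do not single out labelled peaks.

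FOXK2 peaks as a whole seldom held an Alu word near their centre. An Alu word was present within 100 bp of the centre in 106 of 12471 peaks in replicate 1 (0.850%, interval 0.703 to 1.03%) and in 259 of 27281 peaks in replicate 2 (0.949%, 0.841 to 1.07%). Windows of the same length centred 2000 bp to each side of the same peaks held one in 13.0% and 12.2% of cases, and windows 10000 bp away in 12.7% and 11.9%. In intronic and intergenic peaks alone the shares were 0.965% and 1.03%, against 11.4% and 10.8% in their flanks 2000 bp away. By distance, the share of these peaks with an Alu word in a bin of 100 bp was 6.27% at 450 bp upstream in replicate 1 and 6.06% in replicate 2. It was 0.450% and 0.480% in the bin centred 50 bp downstream of the centre. MIR words were less depleted, with 1.91% and 1.89% of all peaks against 2.98% and 2.77% of flanks. This comparison was added after the data were examined and is given with no test. It counts words and not Alu elements, since only 37.2% and 39.6% of labelled Alu peaks held an Alu word. How often the words find Alu copies in flanks was not measured.

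**Figure D2:**
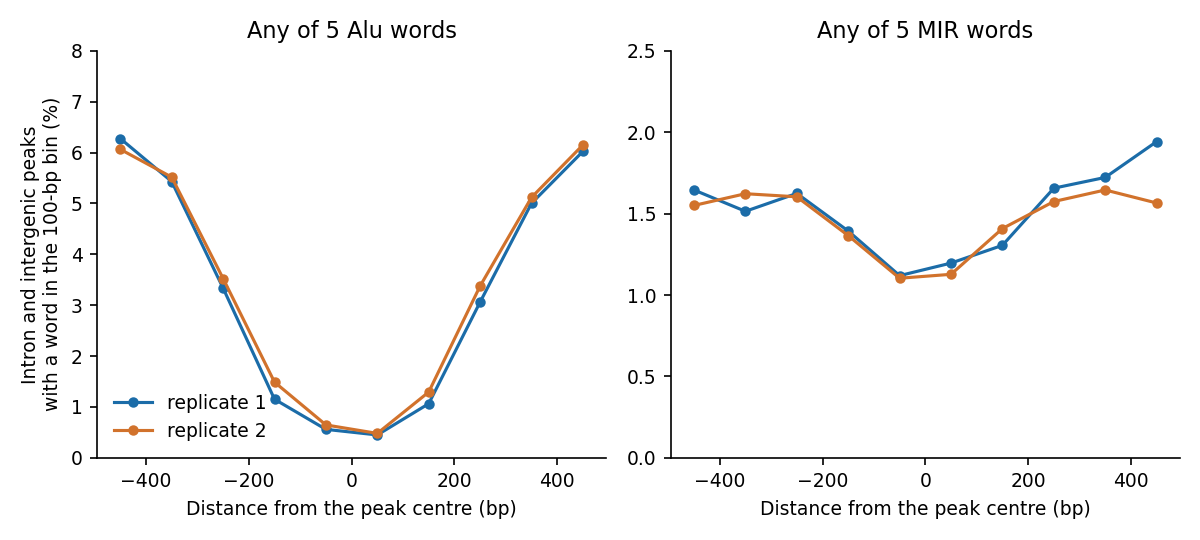
Share of intronic and intergenic FOXK2 peaks (y axis, %) with an Alu word (left) or a MIR word (right) in each bin of 100 bp, by distance of the bin's centre from the peak centre (x axis, bp), for each replicate; the y axes differ in scale. The Alu curves fell from about 6% at the edges to 0.450% and 0.480% near the centre, and the MIR curves stayed between 1.10% and 1.94%.

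Reads were 50 bases long, and a read from a young repeat can match many places. The share of 50-base words in a peak's span, or in a flanking window, that occur once in hg38 was therefore used as a measure of how well reads can be placed. At least 90% of the words were unique in 38 of 43 Alu peaks of replicate 1 (88.4%) and 81 of 91 of replicate 2 (89.0%), compared with 220 of 220 and 481 of 485 MIR peaks (100% and 99.2%). The difference of -11.6 and -10.2 percentage points was past the threshold in both lists (two-sided Fisher's exact test, Benjamini-Hochberg adjusted p = 3.34e-04 and 2.01e-05). It was not seen in the higher-scoring 50% of each list, where the mean of both lists was 0.253 points, nor with a limit of 50% unique words, which all Alu peaks reached and where it was 0.206 points, and it was -29.8 points when all words had to be unique (31 of 43 and 59 of 91 Alu against 217 of 220 and 475 of 485 MIR peaks; Fisher's exact test, adjusted p = 1.28e-07 and 2.92e-19). With lists of equal length it was lost and turned in replicate 2, with 24 of 24 Alu and 174 of 175 MIR peaks at 90% or more (0.571 points). AluS peaks were the least unique, with 11 of 15 and 27 of 35 at 90% or more, whereas AluJ peaks reached 22 of 23 and 49 of 51. Flank windows with an Alu word were less unique still, with 1294 of 3235 and 2703 of 6669 at 90% or more. Among windows with at least 90% unique words, an Alu word was present in 0.800% and 0.858% of peaks and in 6.03% and 5.76% of flanks, so a gap remained at well-placed sequence, at under the full size. The part of read placement in the remaining gap was not tested.

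The forkhead heptamer was more frequent in SINE peaks than in their flanks. TGTTTAC on either strand was present within 100 bp of the centre in 90 of 281 SINE peaks in replicate 1 (32.0%, interval 26.9 to 37.7%) and 192 of 618 in replicate 2 (31.1%, 27.6 to 34.8%). Their flanking windows 2000 bp away held it in 2.49% and 2.75% of cases, close to the 2.88% and 2.89% of the flanks of all peaks. Over all peaks of each list, promoters included, 30.5% and 28.2% held it. The excess of 29.5 and 28.3 percentage points was past the threshold in both lists (two-sided Fisher's exact test over peaks and windows, adjusted p = 2.09e-32 and 7.20e-65). These p-values measure counting over windows, since flanks belong to the same loci and peaks are not replicates of a condition.

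Both main families carried the heptamer above their own flanks. MIR peaks held it in 76 of 220 (34.5%) and 167 of 485 cases (34.4%), against 2.95% and 2.78% of their flanks (Fisher's exact test, adjusted p = 4.80e-27 and 1.58e-59). Alu peaks held it in 10 of 43 (23.3%, 13.2 to 37.7%) and 14 of 91 cases (15.4%, 9.39 to 24.2%), against 1 of 86 and 4 of 182 flanking windows (Fisher's exact test, adjusted p = 2.99e-04 and 3.34e-04). The Alu excess of replicate 2 no longer passed the threshold when that list was limited to as many peaks as replicate 1 (3 of 24 against 1 of 48, Fisher's exact test, adjusted p = 0.189) or with the core TGTTTA (23 of 91 against 26 of 182, Fisher's exact test, adjusted p = 0.0704). The Alu share minus the MIR share was -11.3 points in replicate 1 and -19.0 points in replicate 2, and only the second difference passed the threshold (Fisher's exact test, adjusted p = 0.264 and 6.43e-04). It did not pass in replicate 2 with lists of equal length (3 of 24 against 56 of 175) or in the higher-scoring 50% (5 of 26 against 66 of 198; Fisher's exact test, adjusted p = 0.124 and 0.318). With 43 Alu peaks in replicate 1, the interval of the Alu share still reached the MIR share.

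Against non-repeat peaks, which are intronic and intergenic peaks outside any annotated repeat or CpG island, SINE peaks did not stand apart. TGTTTAC was present in 34.3% of 6371 non-repeat peaks in replicate 1 and 30.6% of 14487 in replicate 2, a difference of -2.24 and 0.50 percentage points (Fisher's exact test, adjusted p = 0.584 and 0.818). Peaks in LINE elements held it more often, in 46.8% and 45.8% of cases, and peaks in LTR elements in 41.1% and 36.2%. Against LINE, LTR and DNA transposon peaks as one group, the SINE share differed by -10.8 points in the mean of both lists (Fisher's exact test, adjusted p = 5.10e-04 and 9.21e-06).

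Within SINE peaks the heptamer sat close to the centre. Of the copies within 100 bp, 46 of 91 in replicate 1 (50.5%) and 118 of 198 in replicate 2 (59.6%) lay within 25 bp, and the median distance was 25 and 21 bp. MIR peaks showed the same order of distance, at 25 and 20 bp, and Alu peaks had medians of 26.5 and 22 bp over 10 and 14 copies. Of the Alu peaks with the heptamer, 4 of 10 and 4 of 14 also held an Alu word.

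**Figure D3:**
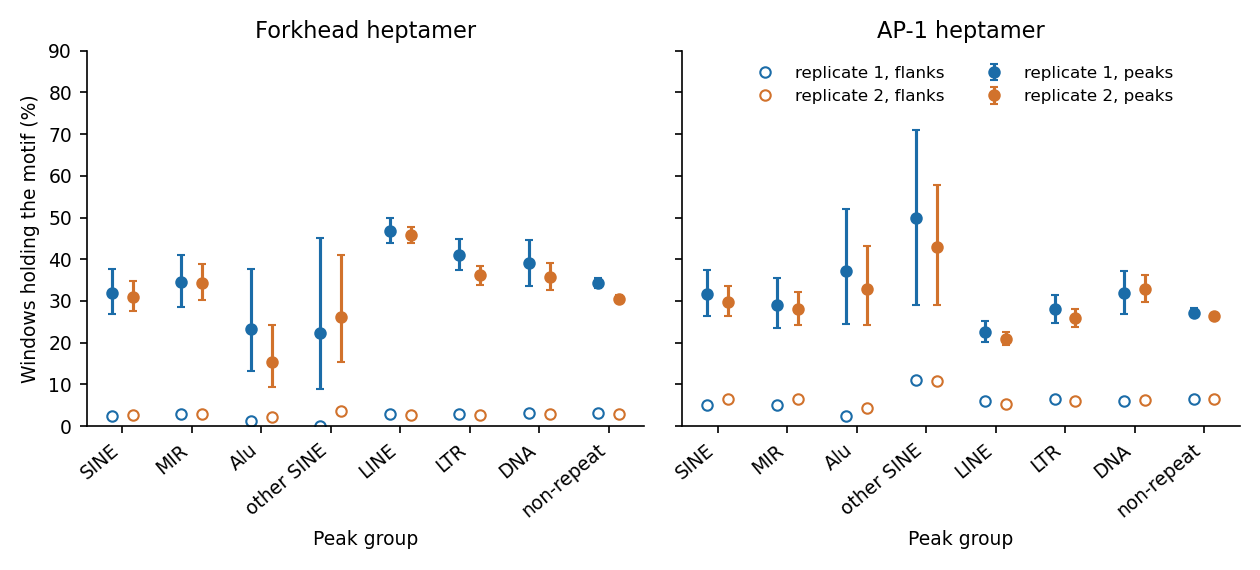
Share of windows (y axis, %) holding the forkhead heptamer (left) or the AP-1 heptamer (right) in each peak group; filled points are peak windows with 95% Wilson intervals, open points the flanking windows 2000 bp away, in each replicate. SINE peaks held the forkhead heptamer in 32.0% and 31.1% of cases and their flanks in 2.49% and 2.75%.

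The AP-1 heptamer was about as frequent as the forkhead one. TGANTCA was present in 89 of 281 SINE peaks (31.7%, interval 26.5 to 37.3%) and 184 of 618 (29.8%, 26.3 to 33.5%), against 4.98% and 6.47% of their flanks. Non-repeat peaks held it in 27.2% and 26.4% of cases, and the differences of 4.47 and 3.40 points did not pass the threshold (two-sided Fisher's exact test, adjusted p = 0.189 and 0.126). Against LINE, LTR and DNA transposon peaks they were 5.85 and 5.27 points, and the second passed in its list (Fisher's exact test, adjusted p = 0.0842 and 0.0129). Alu peaks held it in 16 of 43 (37.2%) and 30 of 91 cases and MIR peaks in 64 of 220 (29.1%) and 136 of 485 (28.0%), a difference of 8.12 and 4.93 points that did not pass the threshold (Fisher's exact test, adjusted p = 0.419 and 0.528). The Alu minus MIR difference turned to -0.994 and -2.28 points within 50 bp of the centre, and to -11.6 points in replicate 2 with lists of equal length. Among all peaks, promoters included, 20.8% and 21.0% held it. The AP-1 heptamer was spread more widely around the centre than the forkhead heptamer, with 25.5% and 25.8% of copies within 25 bp and median distances of 44 and 45 bp. In Alu peaks its median distance was 63 and 61 bp. Both heptamers occurred together in 24 and 43 SINE peaks (8.54% and 6.96%), near the 7.53% and 6.03% of non-repeat peaks. Over all peaks of each list 5.91% and 4.88% held both. Neither occurred in 126 of 281 and 285 of 618 SINE peaks, against 2935 of 6371 and 7111 of 14487 non-repeat peaks.

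**Figure D4:**
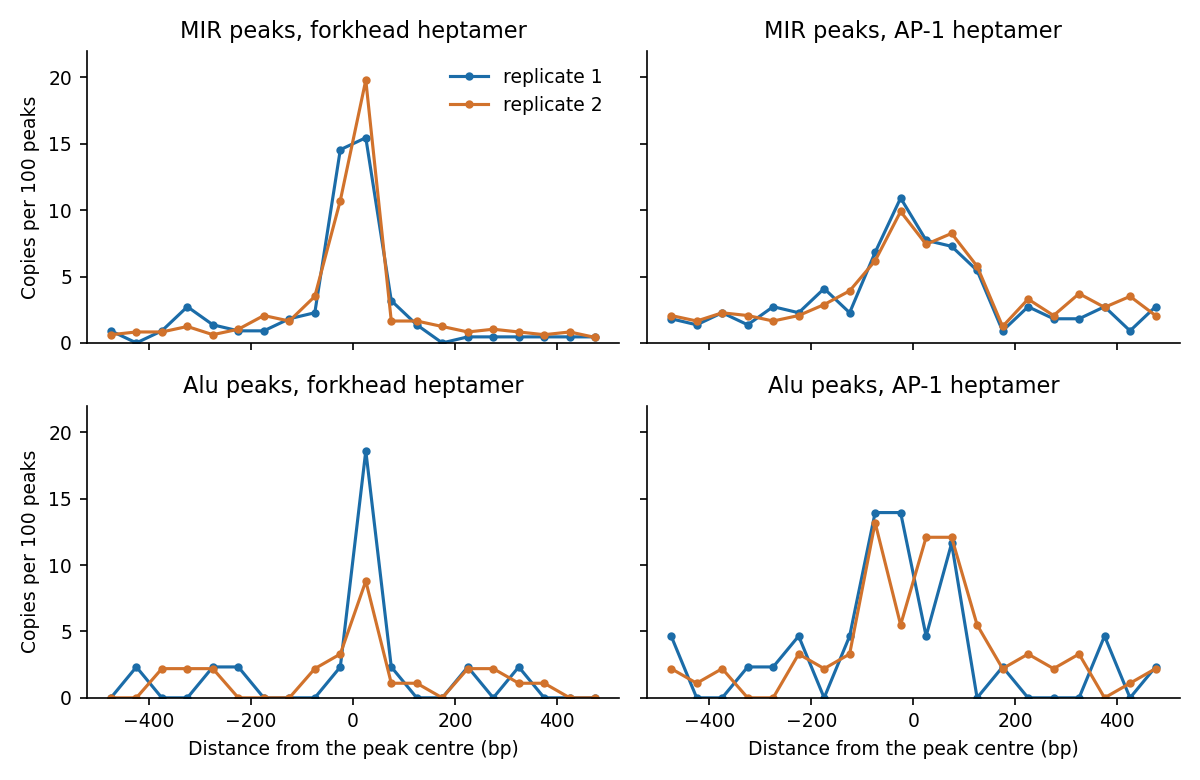
Copies of the forkhead heptamer (left) and the AP-1 heptamer (right) per 100 peaks (y axis) in bins of 50 bp by distance from the peak centre (x axis, bp), for MIR peaks (top) and Alu peaks (bottom) in each replicate. The forkhead copies gathered in the bins next to the centre, with median distances of 25 and 20 bp in MIR peaks, and the AP-1 copies were spread wider, with medians of 43 and 44 bp.

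In Alu peaks many AP-1 copies stood at 2 fixed places of the element. Of the TGAGTCA copies in Alu peaks, 6 of 16 in replicate 1 and 11 of 32 in replicate 2 stood within 12 bases after ATTACAGG (at least 7 of its 8 letters), and a further 3 and 7 directly after GGNTGCAG (at most 1 mismatch). These places therefore supplied 9 of the 43 Alu peaks (20.9%) and 18 of the 91 (19.8%) with a TGAGTCA. In non-repeat peaks, 12 of 1515 and 37 of 3334 TGAGTCA copies followed ATTACAGG (0.792% and 1.11%), and in MIR peaks 0 of 59 and 2 of 121.

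At the first place the most frequent heptamer in flanking windows was TGAGCCA, which becomes TGAGTCA by C5T, counting from 1 at the heptamer's 5′ end. Over all flanking windows 2000 bp away, the exact word ATTACAGG and 2 further bases were followed by TGAGCCA in 1133 of 2460 copies for replicate 1 (46.1%) and 2323 of 5250 for replicate 2 (44.2%), and by TGAGTCA in 26 (1.06%) and 58 (1.10%). In the windows of all peaks, TGAGTCA followed in 13 of 114 copies (11.4%, interval 6.79 to 18.5%) and 29 of 269 (10.8%, 7.61 to 15.05%), and TGAGCCA in 21.1% and 21.6%. In Alu peaks alone TGAGTCA followed in 5 of 10 and 9 of 27 copies. In peaks without a SINE label, promoters and exons included, it followed in 8 of 98 (8.16%) and 20 of 235 copies (8.51%). With flanks 10000 bp away the background was 1.60% and 1.75%, and in windows with at least 90% unique words the shares were 9.90% and 9.32% in peaks against 1.40% and 1.32% in flanks.

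At the second place, after the exact word GGNTGCAG, TGAGTCA followed in 2 of 17 copies in Alu peaks of replicate 1 and 5 of 30 in replicate 2 (11.8% and 16.7%), and TGAGCCA in 1 and 2. In flanking windows TGAGTCA followed in 16 of 2320 and 23 of 4970 copies and TGAGCCA in 290 and 591 (12.5% and 11.9%). The most frequent heptamer in these flanks was TGAGCCG in both replicates, not TGAGCCA. Over all peaks, Alu peaks included, TGAGTCA followed in 2 of 628 and 7 of 1306 copies and TGAGCCA in 1 and 5. These TGAGTCA shares were 0.319% and 0.536% in all peaks and 0.690% and 0.463% in flanks, so over all copies of the word peaks were not above flanks in replicate 1 and differed by little in replicate 2. In peaks without a SINE label TGAGTCA followed in 0 copies in replicate 1 and 2 of 1264 copies (0.158%) in replicate 2. Both places were noticed in these data and then counted in them, so no test is given.

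Of the 9 Alu peaks with TGAGTCA at these places in replicate 1, 6 overlapped a peak of replicate 2. Of the 18 in replicate 2, 4 overlapped a peak of replicate 1. Over all Alu peaks 67.4% and 20.9% overlapped, and over all peaks of each list 74.9% and 34.2%. The counts at these places thus lay near the Alu shares. At least 90% of words were unique in 6 of the 9 and 14 of the 18, against 88.4% and 89.0% of all Alu peaks.

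SINE peaks were weaker than non-repeat peaks. The score is the tag count that HOMER scaled within each library, so it was ranked only within its list. The median SINE score was 5.47 in replicate 1 and 6.39 in replicate 2, against 5.85 and 7.29 over each list, and the highest were 22.3 and 36.3. In the top 25% of the list by score lay 49 of 281 SINE peaks (17.4%) and 108 of 618 (17.5%), compared with 23.9% and 23.7% of non-repeat peaks, a difference of -6.50 and -6.25 points (two-sided Fisher's exact test, adjusted p = 0.0303 and 7.56e-04). The difference no longer passed in both lists with a limit at the top 10% or 50%, with lists of equal length or within the higher-scoring 50% of each list, and against LINE, LTR and DNA transposon peaks it was -0.213 points. Peaks in LINE, LTR and DNA elements had similar shares of 18.3%, 17.7% and 18.7% in replicate 1 and 16.6%, 18.2% and 16.9% in replicate 2. Among the top 1000 peaks of each list, 11 and 6 lay in a SINE. Alu peaks fell in the top 25% in 5 of 43 and 12 of 91 cases (11.6% and 13.2%) and MIR peaks in 36 of 220 and 82 of 485 (16.4% and 16.9%), a difference that did not pass the threshold (Fisher's exact test, adjusted p = 0.584 and 0.564).

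Most SINE peaks of the shorter list were found again in the longer one. Of all replicate 1 peaks, 74.9% shared 1 bp or more with a replicate 2 peak, and 34.2% of replicate 2 peaks did so with a replicate 1 peak. SINE peaks did so in 203 of 281 cases (72.2%, interval 66.7 to 77.2%) and 174 of 618 cases (28.2%, 24.8 to 31.8%), against 74.4% and 32.8% of non-repeat peaks. The differences of -2.14 and -4.60 points passed the threshold in replicate 2 but not in replicate 1 (Fisher's exact test, adjusted p = 0.564 and 0.0417). The replicate 2 call was lost with at least 90% unique words, with overlap of at least 50% of both peaks, with centres within 100 bp and in the higher-scoring 50% (Fisher's exact test, adjusted p = 0.0624, 0.0972, 0.0913 and 0.658), and with lists of equal length the differences were -5.75 points in replicate 1 and 2.37 points in replicate 2, with a mean of -1.69 points (Fisher's exact test, adjusted p = 0.126 and 0.584). Within the top 25% by score, 47 of 49 and 82 of 108 SINE peaks overlapped (95.9% and 75.9%), close to the 96.5% and 74.1% of non-repeat peaks. In the lowest 25% 37 of 80 and 8 of 203 did (46.3% and 3.94%), against 49.6% and 4.62% of non-repeat peaks. Alu peaks overlapped in 29 of 43 and 19 of 91 cases and MIR peaks in 156 of 220 and 133 of 485, with no difference past the threshold (Fisher's exact test, adjusted p = 0.771 and 0.378). With lists of equal length the Alu minus MIR difference was -13.2 and -14.7 points, against -3.47 and -6.54 points in the full lists, and did not pass either (Fisher's exact test, adjusted p = 0.221 and 0.279).

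Peaks in the rarer SINE families were also described as 1 group. AmnSINE1, MamSINE1 and LFSINE_Vert together had 18 of 18 peaks of replicate 1 and 22 of 42 of replicate 2 with an overlapping partner (100% and 52.4%), and 8 of 18 and 14 of 42 in the top 25% by score (44.4% and 33.3%). LFSINE_Vert alone had 1 of 5 and 2 of 8 peaks there. In the higher-scoring 50% of each list, the mean difference of the group from Alu and MIR peaks fell from 27.8 to 11.8 points for overlap and from 22.9 to 1.00 points for the top 25%. In this group 9 of 18 and 18 of 42 peaks held TGANTCA, and 4 and 11 held TGTTTAC. All of their windows reached 90% unique words. This grouping was made after the values were seen, so it carries no test. Among the MIR names with at least 10 peaks in both lists, MIRc had the highest share of overlapping peaks, with 38 of 45 and 35 of 91 (84.4% and 38.5%), compared with 66.0% and 25.3% for MIRb, 76.1% and 22.5% for MIR and 62.1% and 22.6% for MIR3.

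**Figure D5:**
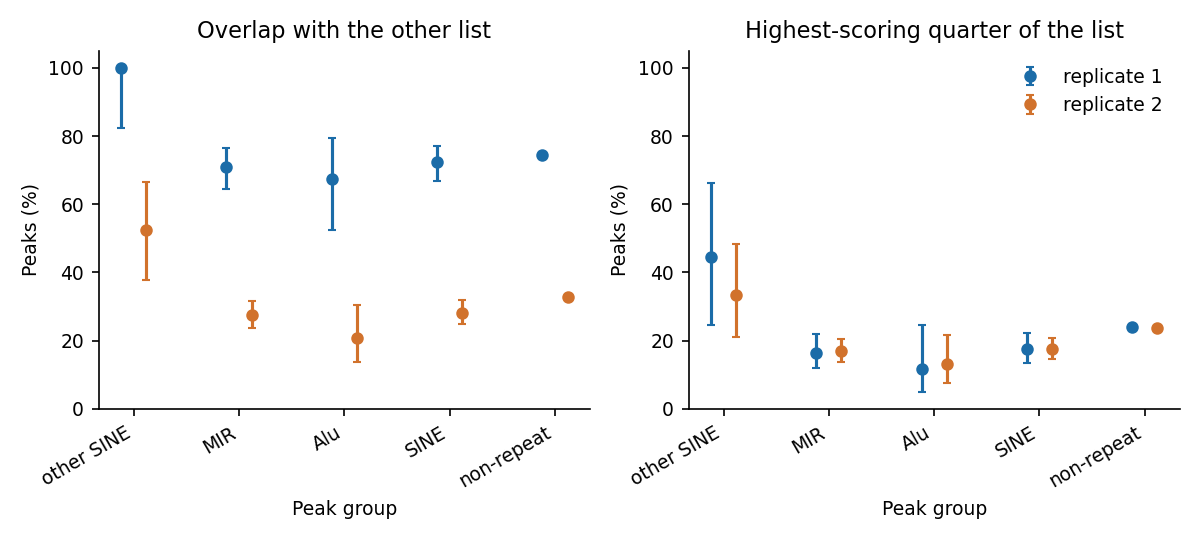
Share of peaks (y axis, %) that overlapped a peak of the other replicate (left) and that fell in the top 25% of their own list by score (right), for SINE families, all SINE peaks and non-repeat peaks in each replicate, with 95% Wilson intervals. The group of other SINEs was highest in both panels, with 100% and 52.4% overlapping and 44.4% and 33.3% in the top 25%.

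Of the 203 overlapping SINE peaks in replicate 1, 129 had a partner that was itself annotated as SINE, and 128 of these had the same repeat name. The other 74 had a partner with no SINE label, which was a non-repeat peak in 59 cases and a LINE, LTR or DNA transposon peak in 12. The median distance between the centres of partners was 34 bp for replicate 1 and 29 bp for replicate 2. The 129 SINE peaks annotated in both lists comprised 103 MIR, 11 Alu and 15 other SINE peaks, 77 of them in introns and 52 intergenic, near 128 different genes. TGTTTAC was present in both replicates' windows of 45 of these, TGANTCA in 43, and neither motif in either window in 45. These motif counts are given without a comparison group.

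The strongest shared SINE peak lay in a MIRb in intron 1 of 6 of PIWIL4-AS1, an antisense RNA gene, at chr11:94737393-94737603 in replicate 1. Its score was 22.3 in replicate 1 (rank 212) and 36.3 in replicate 2 (rank 337.5), and it held 1 TGTTTAC in each window. A MIRb peak in intron 2 of NUDCD3, a co-chaperone gene, followed with scores of 17.4 and 34.4 (ranks 408.5 and 392). A MIR3 peak in intron 3 of FAM20C, which encodes the Golgi kinase of secreted proteins, had scores of 16.0 and 33.8 (ranks 506 and 405.5). Neither of these held either heptamer within 100 bp of its centre.

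The best Alu peak held position 4 among the shared SINE peaks. It lay in an AluSq in intron 5 of 12 of MUT (now MMUT), the mitochondrial methylmalonyl-CoA mutase gene, at chr6:49453201-49453411, with scores of 15.8 and 30.3 (ranks 521 and 526) and 1 TGTTTAC. All of its words were unique in hg38. The next Alu peaks lay in intron 2 of GNA12, a G protein alpha subunit gene, with scores of 9.62 and 22.8, and in intron 1 of WWC1, a scaffold gene of the Hippo pathway, with scores of 9.05 and 17.7. An AluJr peak in intron 2 of DPH6-DT, with MIR4510 as nearest gene, had scores of 7.92 and 13.2, and an AluJr peak in intron 2 of LARP4, an RNA-binding protein gene, 6.98 and 12.2. The DPH6-DT peak held the AP-1 heptamer in both windows, the LARP4 peak held it in the replicate 1 window only, and neither held TGTTTAC. The LARP4 copy also lies inside the replicate 2 peak, but more than 100 bp from its centre.

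The remaining named peaks had genes of varied function as nearest gene. A MIRc peak 31197 bp from the start of GADD45B, a growth arrest and DNA damage gene, had scores of 13.4 and 30.9, and a MIRb peak 6178 bp from LOC221122 had 14.0 and 23.3. Both held TGTTTAC in both replicates. A MIR peak in intron 1 of ST3GAL1, a sialyltransferase gene, had scores of 14.1 and 20.7 with neither heptamer, and a MIRb peak in intron 1 of TBC1D10A, a Rab GTPase-activating protein gene, 13.4 and 21.0 with TGTTTAC. An intergenic AmnSINE1 peak nearest to LINC02425 had scores of 12.3 and 24.1 and held TGTTTAC. A MIRc peak 448819 bp from the start of TRPS1, a GATA-type repressor gene, had scores of 12.5 and 19.9 and held the AP-1 heptamer. TRPS1 was the only gene with at least 2 SINE peaks in both lists, the second lying in an AmnSINE1 with ranks 3043 and 3291.

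SINE peaks, like non-repeat peaks, were mostly distal, and a repeat is named only for intronic and intergenic peaks. The median distance to the nearest transcription start site was 27621 bp for SINE peaks of replicate 1 but 32598 bp for those of replicate 2. Non-repeat peaks had medians of 31687 and 33561 bp, LINE peaks 40752 and 38353 bp, LTR peaks 37396 and 43313 bp, and DNA transposon peaks 30580 and 36768 bp. Of the SINE peaks, 45 (16.0%) and 115 (18.6%) lay beyond 100000 bp. Within 10 kb lay 21.7% and 21.7% of SINE peaks and 23.4% and 21.6% of non-repeat peaks, a difference of -1.71 and 0.13 points that did not pass the threshold (two-sided Fisher's exact test, adjusted p = 0.632 and 0.920). The nearest gene was protein coding for 203 of 281 and 444 of 618 SINE peaks.

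Lists of genes of the unfolded protein response, FOXK2 targets and stemness genes that the study names, autophagy, AP-1 and MAPK signalling, insulin and PI3K signalling and the cell cycle were then searched. Of their 94 members, 55 were nearest gene to a peak in both lists, and 0 had a SINE peak in both. Over all genes, 136 of 7615 with a peak in both lists had a SINE peak in both (1.79%). In a single list, MIR peaks were nearest to DDIT4, a stress-induced inhibitor of mTORC1, and MITF, a lysosomal and melanocyte regulator, in replicate 1. In replicate 2 they were nearest to FOS, E2F1 and ATXN1. Scores of these 5 peaks ran from 4.34 to 6.99, and none overlapped a peak of the other replicate. Listed genes with a SINE peak thus numbered 2 of 56 with any peak in replicate 1 and 3 of 79 in replicate 2, against 276 of 8359 and 598 of 13887 over all genes. The FOXK2 target genes were chosen by the study with the help of these same ChIP-seq samples, so their count is not independent evidence.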

How the data were processed

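FOXK2 ChIP-seq was measured in 2 biological replicates of OVCAR-5. The authors mapped single-end reads to hg38 with Bowtie2 2.2.6 and called and annotated peaks in each replicate with HOMER 4.10, per the submitters' notes. The lists were used as deposited. The peak score is a score that the authors' HOMER run scaled per library, the deposited focus ratio is a fraction of which only group medians were taken, not reported here, and the deposited distance to the TSS is in bp, a value of another kind than the score. Each list was analysed on its own, and the hg38 genome gave windows of 100 bp to each side of the peak centre, and of the same length 2000 or 10000 bp away. The share of unique words was counted over 50-base words. Shares carry Wilson intervals at 95%. For 14 comparisons a two-sided Fisher's exact test was made in each list (SciPy), adjusted by Benjamini-Hochberg over 28 tests, and called past the threshold at an adjusted p below 0.05 in both lists. The tests compare peaks, not conditions. Many loci stand in both lists, since 74.9% of replicate 1 peaks overlapped a replicate 2 peak. At such loci motifs and unique words are read from the same genome sequence. A pass in both lists is therefore not 2 independent results. The steps for replicate overlap and heptamer share were tested on simulated data. Named peaks were the 10 best shared SINE peaks by mean score percentile, the 5 best in Alu and in MIR, and repeat names with at least 10 peaks in both lists. Exceptions named in the text were chosen after their values were seen. Members and lists were chosen with earlier results of these data known. Alternatives were the higher-scoring part of each list, equal list lengths, unique windows, other overlap, score, motif and distance limits and other comparison peaks. The share of heptamer copies inside masked repeat bases was not run, because the genome copy used here has no mask. Sequences of individual AP-1 copies in Alu peaks are not reported here.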

Additional observations from a re-analysis of the deposited data

How the results depend on the processing

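No paired analysis was possible because only 1 of the 2 sample groups, the immunoprecipitated one, was analysed. Of 114 alternatives planned for 15 results, 83 kept the direction of the mean of both lists and the joint call (past the threshold in both lists or not). In 19 of these 83 a single list still changed its sign or its own call. The 83 include all 8 each for the TGTTTAC excess of SINE and of MIR peaks over their flanks, which ran from 25.7 to 34.8 and from 28.5 to 39.1 points. Values below are in percentage points, as means of both lists unless 1 list is named, and the cause of a change was not tested except where the setting itself sets the comparison. Peaks are few in Alu (43 and 91), which limits every Alu comparison.

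With replicate 1 or 2 left out, the overlap of SINE minus non-repeat peaks was between -4.60 and -2.14, the TGTTTAC share of SINE minus non-repeat peaks between -2.24 and 0.50, that of Alu minus MIR peaks between -19.05 and -11.29, and the share within 10 kb of a TSS between -1.71 and 0.13. In the higher-scoring 50% of each list, the SINE share of the list was 1.91%, the share in the top 25% by score was -3.11 for SINE minus non-repeat and 1.45 for Alu minus MIR peaks, and unique words were 0.253 for Alu minus MIR and 0.523 for SINE minus non-repeat peaks. With replicate 2 limited to the length of replicate 1, the SINE share was 2.02%, the top 25% share -4.66, the TGTTTAC excess of Alu peaks 16.2, TGANTCA in Alu minus MIR peaks -1.73, and unique words in Alu minus MIR peaks -5.53, the mean of -11.6 and 0.571. Score limits of the top 10% and 50% gave -3.04 and -5.98 for SINE minus non-repeat peaks.

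Against LINE, LTR and DNA transposon peaks, the SINE difference was 0.195 for overlap, -0.213 for the top 25%, -10.8 for TGTTTAC, 5.56 for TGANTCA, 5.44 for the share within 10 kb and 4.46 for unique words. It passed in both lists for TGTTTAC and unique words, and in replicate 2 only for TGANTCA and the share within 10 kb. Against all peaks not in a SINE, promoters included, it was 2.24 for TGTTTAC and 10.1 for TGANTCA. For the share within 10 kb it was -19.1, for unique words 0.152, for overlap -4.48 and for the top 25% -7.78. It passed in both lists for TGANTCA, the share within 10 kb and the top 25%, and in replicate 2 only for overlap. TGANTCA and the share within 10 kb had not passed against non-repeat peaks. Within 50 bp of the centre, TGTTTAC in SINE minus non-repeat peaks was 0.601 and TGANTCA in Alu minus MIR peaks -1.64. The six-letter core TGTTTA gave an Alu excess of 16.5. Within 50 kb of a TSS the SINE difference was 1.45. Unique words at 50% or more gave 0.206 for Alu minus MIR peaks, and all words unique -29.8 for these and -4.05 for SINE minus non-repeat peaks.

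The following results and alternatives were chosen after seeing the data. Alu words in peaks minus flanks, -11.7, were -5.07 in windows with 90% unique words. TGAGTCA after ATTACAGG, 10.0 in peaks minus flanks, was 9.10 in the higher-scoring 50%, 8.25 in windows with 90% unique words and 9.42 with flanks 10000 bp away. Other SINE families minus Alu and MIR peaks, 27.8 for overlap and 22.9 for the top 25%, were 11.8 and 1.00 in the higher-scoring 50%, and the overlap was 34.5 with equal list lengths.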

Other observations

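Chromosome 1 held 35 of its 1048 peaks in SINEs in replicate 1 (3.34%, Wilson interval 2.41 to 4.61%) and 81 of 2538 in replicate 2 (3.19%, 2.58 to 3.95%), above the 2.25% and 2.27% of the whole lists. The X chromosome held 2 of 89 (2.25%, 0.618 to 7.83%) and 3 of 381 (0.787%, 0.268 to 2.29%). Chromosome 21 held 0 of 141 (0 to 2.65%) and 4 of 337 (1.19%, 0.463 to 3.01%). The intervals of X and of chromosome 21 reached the shares of the whole lists. These chromosomes were singled out after their values were seen.

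In MIR peaks, 3 of 77 and 7 of 173 copies of the forkhead heptamer, read as GTAAACA, stood within 12 bases after the MIR word CCTCATCT (at least 7 of its 8 letters), which came to 3.90% and 4.05%. In non-repeat peaks 0.387% and 0.319% of copies did. Most heptamers of MIR peaks stood elsewhere than after this word. This word was chosen with the data known, so no test is given.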
